A study of Yarrowia lipolytica with 8 samples.

Results

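The genes described here are the amino acid and peptide transporter genes of *Yarrowia lipolytica*, an oil-accumulating yeast, taken as 31 of the 6394 genes in the expression tables. A gene was included when the name of its first KEGG Orthology hit, a label carried over by sequence similarity, contained amino acid transporter, amino acid permease, amino-acid permease, oligopeptide transporter or choline transport. The last term matched 0 genes. Of the 31 genes, 20 carried the name amino acid transporter of the AAT family and 7 the name proton-dependent oligopeptide transporter of the POT family. The other 4 were 1 gene of solute carrier family 36 (SLC36, proton-coupled amino acid transporters), 2 genes of family 38 (SLC38, sodium-coupled neutral amino acid transporters) and 1 gene of family 32 (SLC32, vesicular inhibitory amino acid transporters). All 20 AAT genes and the SLC36 gene also carried the GO term for amino acid transport, and 6 of the 7 POT genes carried that for peptide transport. The first hit of 9 genes was an entry of the yeast itself, and that of the other genes came from another species. The names of YALI0_D16137g, YALI0_D19646g and YALI0_F25795g rest on weak hits, with expect values of 2e-07, 6e-09 and 6e-09.

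The cells were of strain ACA DC 50109 in all groups and were grown in batch fermenters on a mixture of glucose and glycerol. The medium was nitrogen-limited, and the study states that the samples of all groups were taken once nitrogen had become limiting. One culture was kept at a set dissolved oxygen (pO2-controlled) and the other was not (pO2-uncontrolled). The 4 groups were the controlled culture after (pO2-2) and before (pO2-1) glycerol limitation, and the uncontrolled culture after (pO2-UN-3) and before (pO2-UN-2) it, with 2 libraries each. The labels do not state the phase of pO2-UN-2, which was taken as before because the study's supplement gives pO2-UN-3 as after. The study calls the replicates biological, but no source used here says whether they came from separate fermenters, so the p-values measure the spread between these libraries. Replicates were closer in the controlled culture, where the log2 difference between them had an SD of 0.118 after and 0.120 before glycerol limitation, than in the uncontrolled culture, where it was 0.320 after and 0.325 before, over genes with a mean of at least 20 FPKM. About 5100000 to 5370000 fragments stood behind each library, estimated from the steps between low values, and 5901 to 6201 genes per library had at least 1 FPKM, the fragments of a gene after scaling by exon length and library size. Each phase is 1 sampling time of a culture, so that glycerol limitation and culture time cannot be told apart.

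Permeases of the AAT family sit in the membrane and take up amino acids together with protons. In the baker's yeast *Saccharomyces cerevisiae* the family holds both permeases for many amino acids and permeases for a few, and cells change the set in use with the quality of the nitrogen source. POT family transporters bring in small peptides with protons, and peptidases then release their amino acids. The families SLC32, SLC36 and SLC38 are best known from animals, and related yeast proteins move amino acids across the vacuolar membrane.

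**Figure D1:**
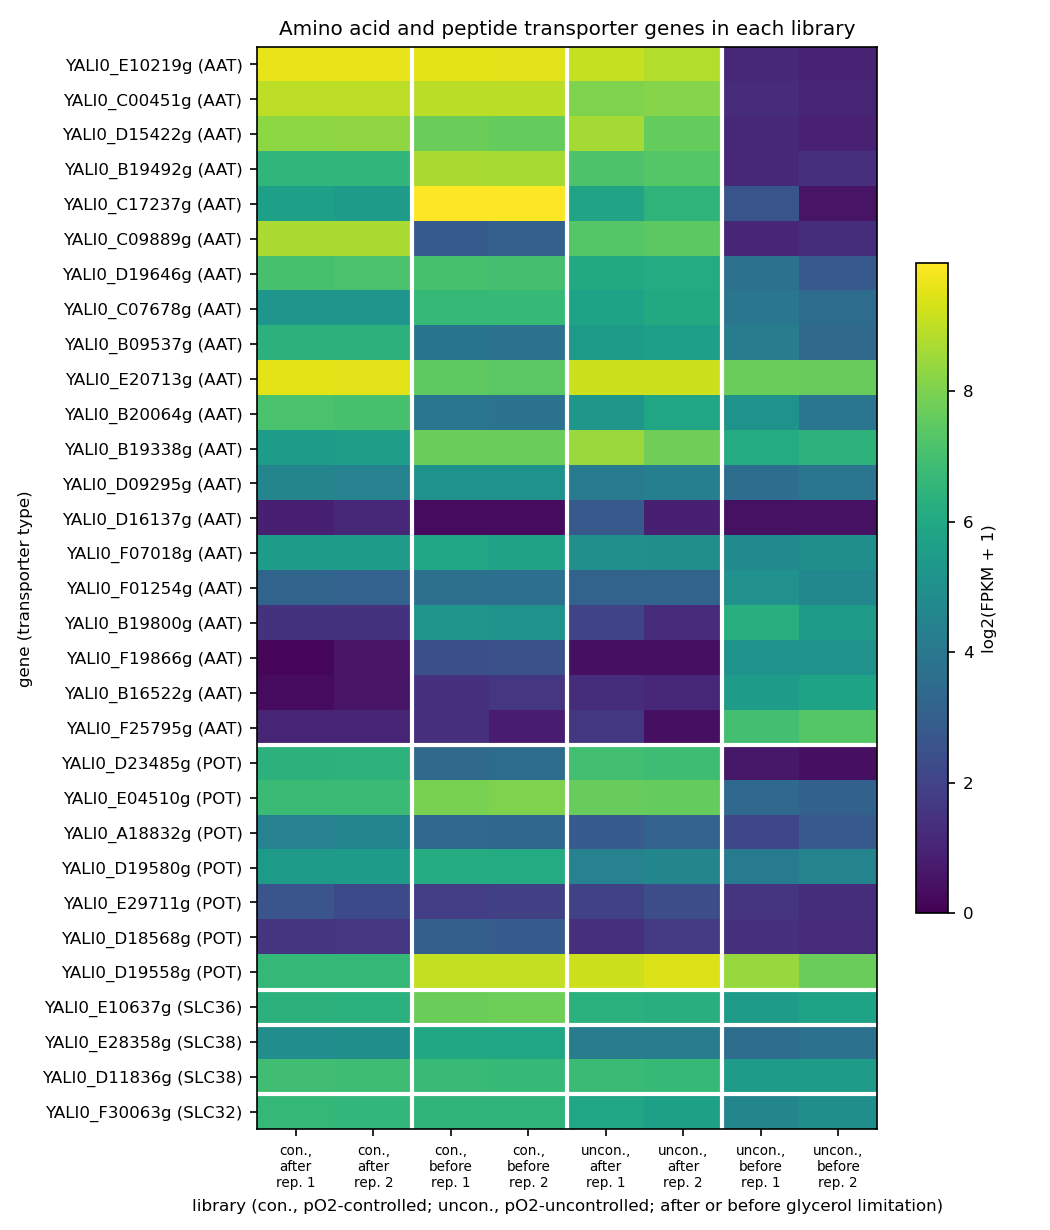
Expression of the 31 transporter genes (down the page, grouped by type) in the 8 libraries (across), coloured by log2(FPKM + 1). The 2 libraries of the uncontrolled culture before glycerol limitation, at the right, are dark for several genes that are bright elsewhere, and bright for a few AAT genes that are dark elsewhere.

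The summed expression of the 31 genes was lowest in the uncontrolled culture before glycerol limitation. In the controlled culture it was 4094 ± 5.99 FPKM after and 4954 ± 55.2 FPKM before glycerol limitation. In the uncontrolled culture it was 3852 ± 170 FPKM after and 1143 ± 97.0 FPKM before it (SD, n = 2 each). As a share of all FPKM this was 0.448% to 0.449% after and 0.564% to 0.572% before glycerol limitation with pO2 control, and 0.366% to 0.384% after and 0.101% to 0.110% before it without pO2 control. FPKM is relative within a library, and in bulk cultures fewer expressing cells and less RNA per cell cannot be told apart. The uncontrolled culture before glycerol limitation had the lowest mean of the 4 groups for 20 of the 31 genes (64.5%), against 46.4% of all 6282 genes compared in this way. There, 9 of the transporter genes had a mean below 2 FPKM and 3 a mean of at least 100 FPKM. In the controlled culture the counts at or above 100 FPKM were 9 after and 12 before glycerol limitation, and in the uncontrolled culture after it 11. The like shares of all genes were not counted.

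**Figure D2:**
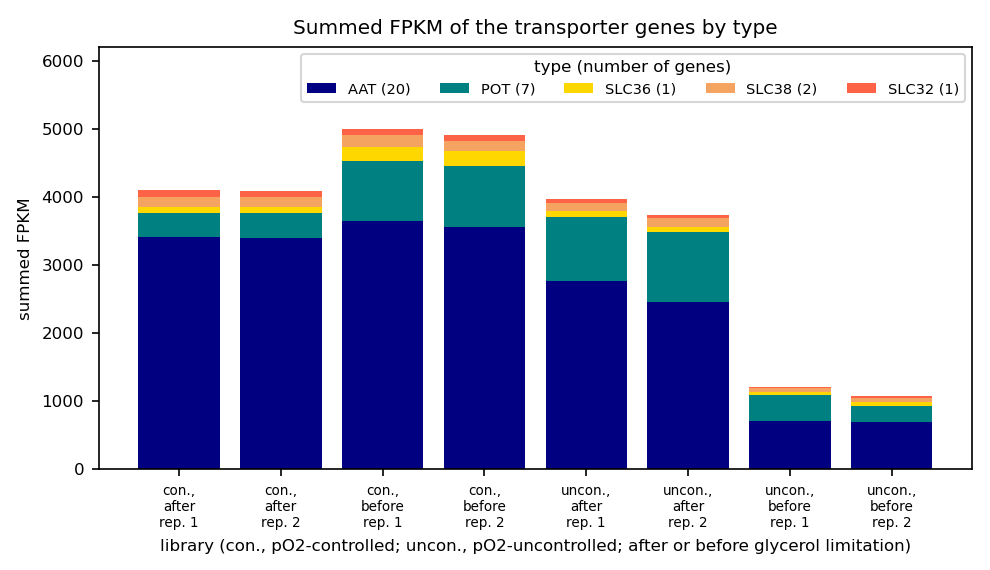
Summed FPKM of the transporter genes (y axis) in each library (x axis), stacked by type, with the number of genes per type in the legend. The 2 libraries of the uncontrolled culture before glycerol limitation reach 1211 and 1074 FPKM, and the other 6 libraries 3733 to 4993 FPKM.

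AAT genes made up most of this sum. They summed to 3405 ± 4.89 FPKM after and 3608 ± 62.5 FPKM before glycerol limitation in the controlled culture, and to 2614 ± 222 FPKM after and 704 ± 16.5 FPKM before it in the uncontrolled culture. The sums of the POT genes were 363 ± 4.27 FPKM after and 879 ± 8.39 FPKM before glycerol limitation in the controlled culture, against 984 ± 66.7 FPKM after and 308 ± 93.3 FPKM before it in the uncontrolled culture (SD, n = 2 each). A single gene, YALI0_D19558g, held 26.7% to 27.0% of the POT sum after and 59.8% to 60.2% before glycerol limitation with pO2 control, and 62.4% to 66.3% after and 84.4% to 91.1% before it without pO2 control. The other 6 POT genes summed to 265 ± 3.90 FPKM after and 352 ± 5.87 FPKM before glycerol limitation in the controlled culture, against 350.1 ± 3.54 FPKM after and 35.4 ± 3.19 FPKM before it in the uncontrolled culture. The types were not tested against each other. Single genes spanned far more than the sums, since 10 of the 31 had group means over 100-fold apart. The share of all genes this far apart was not counted.

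The first comparison asks how the transporter genes responded to glycerol limitation without pO2 control. Of the 30 genes tested, 10 were higher and 4 lower after glycerol limitation, at a Benjamini-Hochberg adjusted p under 0.05 in limma and a log2 fold change of at least 2 either way. Among all 6185 genes tested, 11.3% were higher, 5.01% lower and 16.3% called in either direction. The median log2 fold change of the transporter genes was 1.16, beside 0.49 over all genes tested. By type, 8 AAT genes were higher and 4 lower of 19 tested, 2 of 7 POT genes were higher, and the 4 SLC genes stayed under the minimum change with log2 fold changes of 0.57 to 1.25, each with an adjusted p under 0.05. Median-of-ratios scaling, which scales each library by its median ratio to the average library and moved the median of all genes to 0.03, gave 9 higher and 5 lower transporter genes and 486 higher and 497 lower among all genes, beside 701 and 310 without it. YALI0_D16137g was not tested, because it reached 1 FPKM in fewer than 2 of these libraries.

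The 5 genes with the largest increase were nearly silent before glycerol limitation. YALI0_E10219g (chromosome E, 1264102 to 1265883), the AAT gene with the highest mean over all libraries, had 545 and 448 FPKM after and 1.13 and 1.00 FPKM before glycerol limitation. Its log2 fold change was 7.91 with a standard error of 0.19 (adjusted p = 6.1e-07), and values after ± in the following are likewise standard errors. YALI0_D15422g (chromosome D, 1886948 to 1888570), an AAT gene with an entry of its own in KEGG, had 391 and 193 FPKM after and 1.24 and 0.86 FPKM before it (log2 fold change 7.08 ± 0.34, adjusted p = 5.2e-06). YALI0_C00451g (AAT, chromosome C, 52585 to 54312) had 263.7 and 286 FPKM after and 1.40 and 1.04 FPKM before it (6.96 ± 0.20 on the log2 scale, adjusted p = 1.1e-06). In all of these the groups were over 100-fold apart. The replicates did not overlap, which follows from picking the largest changes.

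The POT gene YALI0_D23485g (chromosome D, 3058219 to 3059958) had 124 and 116 FPKM after and 0.58 and 0.34 FPKM before glycerol limitation, that is 6.38 ± 0.22 on the log2 scale (adjusted p = 2.0e-06). The lower group of YALI0_D23485g rested on about 8 fragments, so that the ratio of 260.9 has a 95% exact interval of 132 to 605.2 for counting error alone. The AAT gene YALI0_C09889g (chromosome C, 1354318 to 1356165) had 161 and 176 FPKM after and 1.09 and 1.5 FPKM before it (6.21 ± 0.21 on the log2 scale, adjusted p = 1.9e-06). The other 5 genes called higher were YALI0_B19492g, YALI0_C17237g, YALI0_D19646g and YALI0_C07678g of the AAT family and the POT gene YALI0_E04510g, with log2 fold changes of 2.18 to 6.03. YALI0_C07678g lay nearest to the minimum, with 53.2 and 64.9 FPKM after and 14.1 and 10.6 FPKM before it (2.18 ± 0.22), and was not called after median-of-ratios scaling (1.71) or without replicate 2 of pO2-UN-2 (1.98).

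The 4 AAT genes called lower showed the opposite arrangement. YALI0_F25795g (chromosome F, 3319758 to 3321482), one of the weak annotations, had 2.09 and 0.34 FPKM after and 126 and 161 FPKM before glycerol limitation and fell by 6.14 ± 0.39 on the log2 scale (adjusted p = 1.6e-05). YALI0_F19866g (chromosome F, 2648489 to 2650306) had 0.33 and 0.33 FPKM after and 33.5 and 33.5 FPKM before it (-4.70 ± 0.24, adjusted p = 6.6e-06), and about 6 fragments after glycerol limitation set the 95% exact interval of its 101-fold ratio at 46.3 to 277. YALI0_B16522g (chromosome B, 2176308 to 2178041) had 1.5 and 1.14 FPKM after and 43.4 and 53.4 FPKM before it (-4.41 ± 0.24, adjusted p = 8.4e-06). YALI0_B19800g (chromosome B, 2610249 to 2612057) had 3.10 and 1.42 FPKM after and 74.4 and 42.4 FPKM before it (-4.18 ± 0.36, adjusted p = 6.1e-05). Other AAT genes were expressed in both phases of the uncontrolled culture and not called. One was YALI0_E20713g, with 592 and 586 FPKM after and 211 and 201 FPKM before glycerol limitation. It rose, but by less than the minimum change (1.51 ± 0.12, adjusted p = 4.7e-05 in limma).

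**Figure D3:**
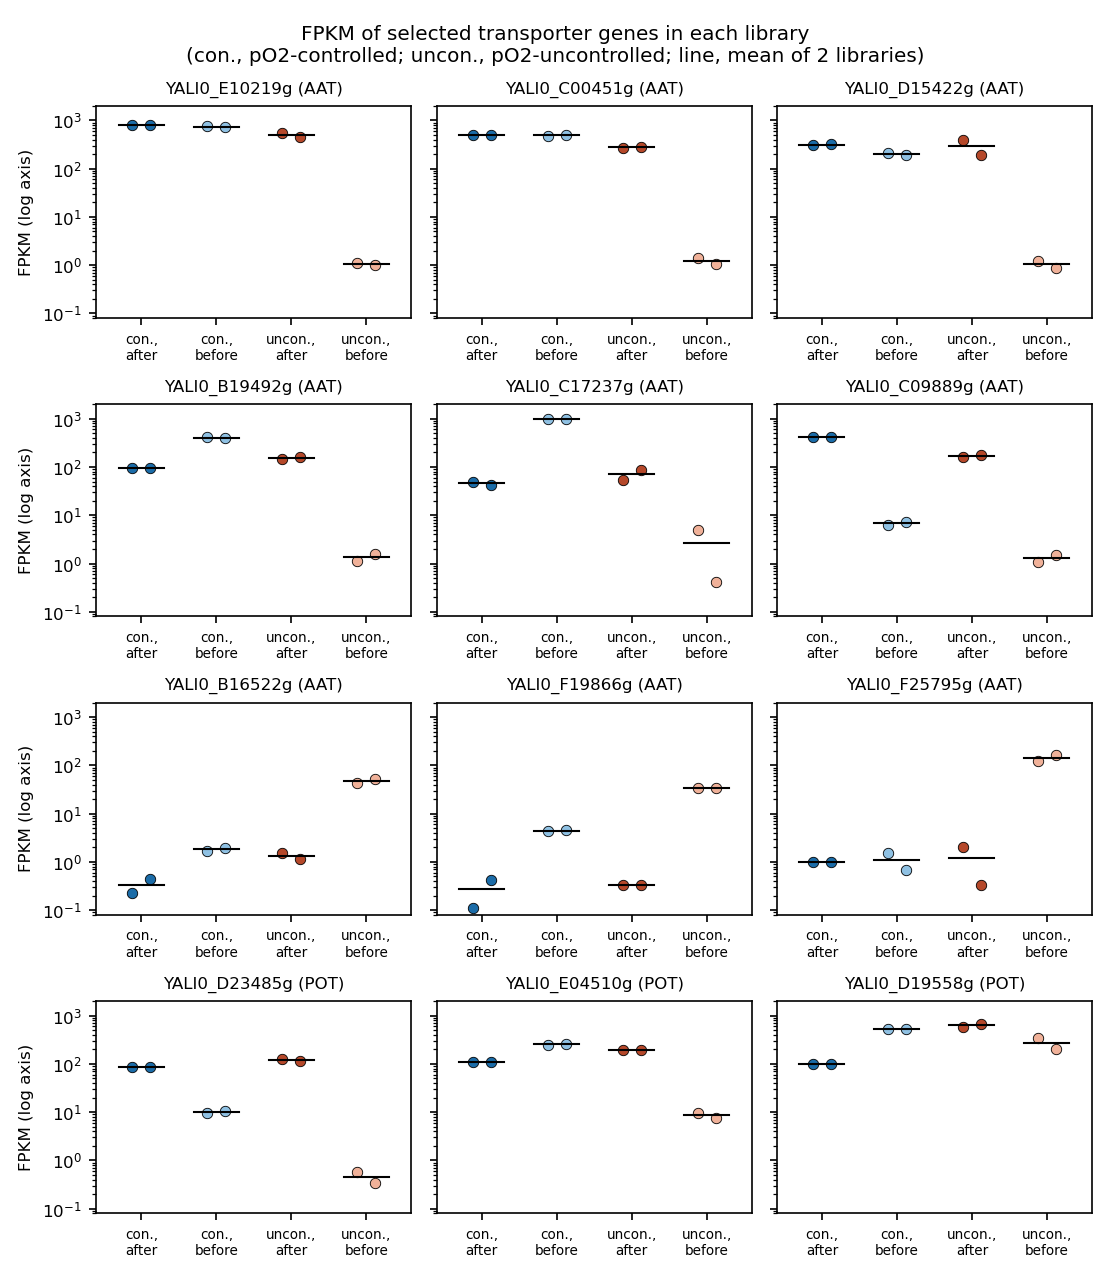
FPKM (log axis) of 9 AAT genes and 3 POT genes in each library, by group; points are libraries and lines are means of 2 libraries. The genes of the upper 2 rows lie at 0.42 to 5.01 FPKM in the uncontrolled culture before glycerol limitation, whereas YALI0_B16522g, YALI0_F19866g and YALI0_F25795g lie at 33.5 to 161 FPKM there.

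The second comparison asks how the transporter genes responded to glycerol limitation with pO2 control. Of 30 tested, 5 were higher and 6 lower after glycerol limitation, whereas among all 6218 genes tested 9.52% were higher, 4.29% lower and 13.8% called in either direction. The median log2 fold change was -0.39, beside 0.13 over all genes. Of 19 AAT genes tested, 4 were higher and 5 lower, and of 7 POT genes, 1 was higher and 1 lower. YALI0_D16137g was again not tested.

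The largest rise was that of YALI0_C09889g, with 415 and 418 FPKM after and 6.35 and 7.24 FPKM before glycerol limitation, that is 5.75 ± 0.07 on the log2 scale (adjusted p = 3.4e-08). The AAT gene YALI0_B20064g (chromosome B, 2640126 to 2641997) had 137 and 133 FPKM after and 14.2 and 13.0 FPKM before it (3.22 ± 0.07, adjusted p = 2.5e-07). The POT gene YALI0_D23485g had 84.1 and 86.7 FPKM after and 9.74 and 10.4 FPKM before it (2.97 ± 0.08, adjusted p = 4.5e-07). YALI0_C09889g and YALI0_D23485g were the genes called higher after glycerol limitation in both cultures. This rests on the minimum change. YALI0_B20064g and the genes YALI0_B09537g and YALI0_E20713g below also rose without pO2 control, by 1.08, 1.68 and 1.51 on the log2 scale. Their adjusted p in limma was 0.039, 0.0014 and 4.7e-05.

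The AAT gene YALI0_B09537g (chromosome B, 1299098 to 1300786) had 82.8 and 83.9 FPKM after and 13.7 and 13.1 FPKM before glycerol limitation with pO2 control (2.55 ± 0.07, adjusted p = 6.1e-07). YALI0_E20713g (AAT, chromosome E, 2450230 to 2451909) had 744 and 728 FPKM after and 180 and 171 FPKM before it (2.06 ± 0.04, adjusted p = 1.1e-07). YALI0_E20713g was expressed at 171 FPKM or more in all 8 libraries, the highest minimum of the transporter genes. After median-of-ratios scaling its log2 fold change was 1.94 and not called.

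Among the genes that fell with pO2 control, YALI0_C17237g (AAT, chromosome C, 2426341 to 2428221) was the most abundant before glycerol limitation. It had 48.6 and 42.9 FPKM after and 996 and 981 FPKM before it, that is -4.41 ± 0.06 on the log2 scale (adjusted p = 4.7e-08). YALI0_B19800g had 1.72 and 1.72 FPKM after and 35.8 and 32.5 FPKM before it (-3.69 ± 0.13, adjusted p = 1.4e-06). The POT gene YALI0_D19558g (chromosome D, 2475658 to 2477505), the most abundant of its type, had 97.1 and 97.6 FPKM after and 526 and 530 FPKM before it (-2.43 ± 0.03, adjusted p = 3.7e-08). These were the 3 largest declines on the log2 scale in this culture, each over 5-fold by the ratio of mean FPKM.

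The AAT gene YALI0_B19338g (chromosome B, 2557513 to 2559231) had 44.5 and 45.3 FPKM after and 204 and 203 FPKM before glycerol limitation with pO2 control (-2.15 ± 0.04, adjusted p = 1.8e-07). YALI0_B19492g (AAT, chromosome B, 2576827 to 2578587) had 93.4 and 94.4 FPKM after and 416 and 401 FPKM before it (-2.11 ± 0.04, adjusted p = 1.1e-07). YALI0_F19866g had 0.11 and 0.43 FPKM after and 4.34 and 4.52 FPKM before it (-2.11 ± 0.23, adjusted p = 2.8e-04). Without replicate 1 of pO2-2 its log2 fold change was -1.92, and it was then not called. The ratio of 16.4 for YALI0_F19866g rested on about 5 fragments after glycerol limitation, with a 95% exact interval of 6.76 to 51.8.

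**Figure D4:**
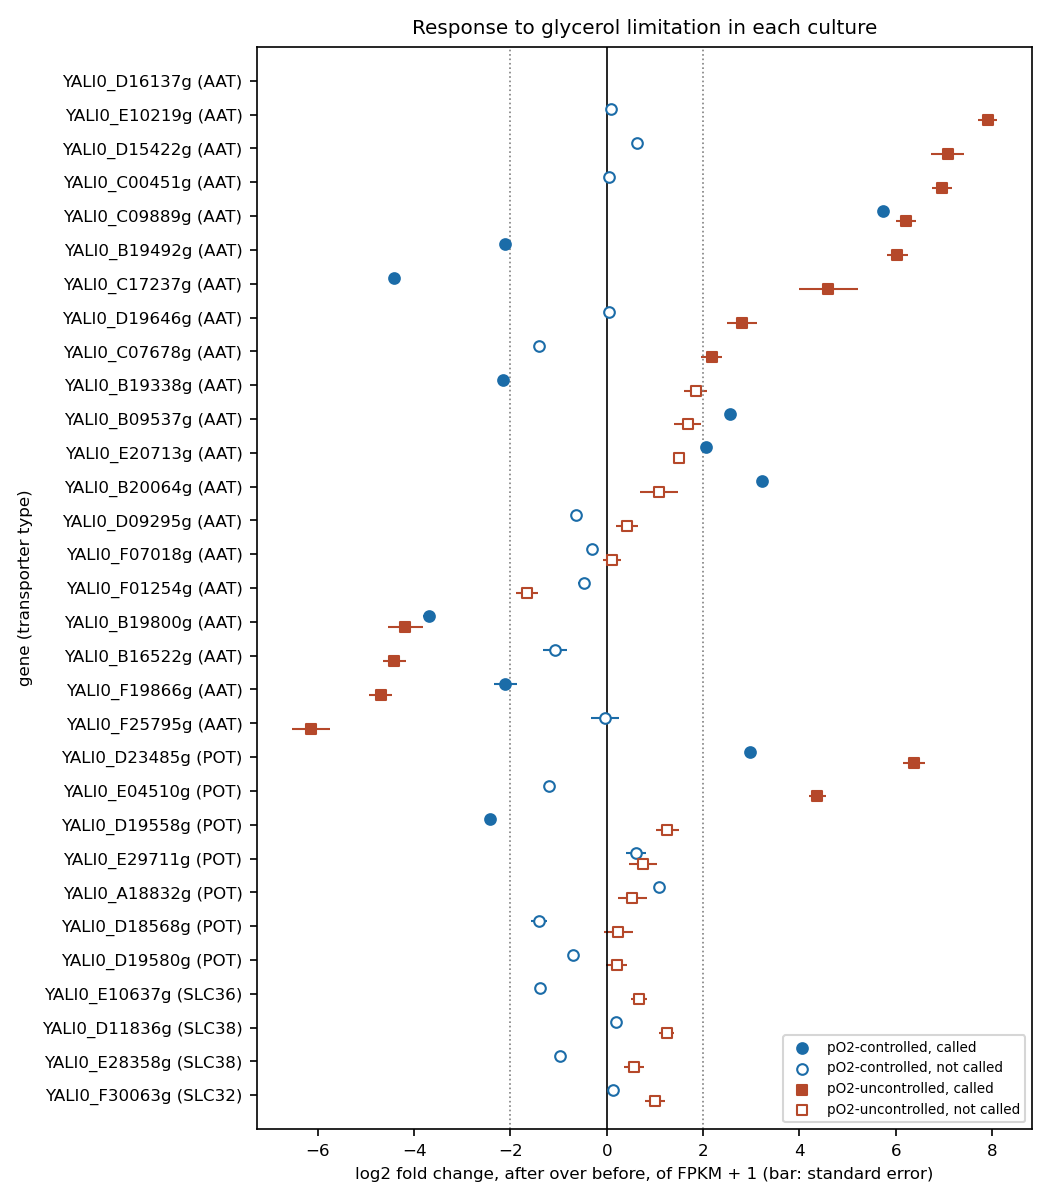
Log2 fold change of FPKM + 1 after over before glycerol limitation (x axis, bars are standard errors) for each transporter gene, in the pO2-controlled and the pO2-uncontrolled culture; filled symbols are called genes and dotted lines mark the minimum change of 2. YALI0_B19492g and YALI0_C17237g lie past the minimum on opposite sides of 0 in the 2 cultures, and YALI0_D16137g, not tested, has no symbol.

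The responses of the cultures were then compared directly, as the difference of log2 fold changes, controlled minus uncontrolled, in a fit to all 8 libraries. Of the 31 genes tested, 4 had a higher and 12 a lower response with pO2 control, whereas of all 6278 genes tested 6.85% were higher, 11.8% lower and 18.7% called either way. With median-of-ratios scaling the counts were 4 and 11, and over all genes 577 higher and 627 lower, beside 430 and 742 without it. The median difference was -1.04, beside -0.20 over all genes. The difference uses the same libraries as the comparisons above.

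The largest difference was that of YALI0_C17237g, -9.00 ± 0.80 (adjusted p = 3.2e-05). This gene fell with pO2 control and rose without it, where it had 54.9 and 88.4 FPKM after and 5.01 and 0.42 FPKM before glycerol limitation (4.60 ± 0.61, adjusted p = 4.7e-04). Its replicates before glycerol limitation were 11.9-fold apart, and leaving out either of them moved the difference between -10.05 and -7.96. YALI0_B19492g also moved in opposite directions. It had 146 and 161 FPKM after and 1.14 and 1.58 FPKM before glycerol limitation in the uncontrolled culture (6.03 ± 0.21, adjusted p = 2.1e-06). Its difference was -8.14 ± 0.17 (adjusted p = 3.5e-08). These were the 2 genes called in opposite directions. At an adjusted p under 0.05 with no minimum change, 8 transporter genes had responses of opposite sign. Among the 8 was YALI0_B19338g, with -2.15 with pO2 control and 1.84 ± 0.24 without it (adjusted p = 3.8e-04 in limma). The share of all genes with opposite signs was not counted.

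For YALI0_E10219g, YALI0_C00451g and YALI0_D15422g the difference came with a high level in both phases of the controlled culture. There YALI0_E10219g had 786 and 783 FPKM after and 752 and 728 FPKM before glycerol limitation, and the difference was -7.82 ± 0.15 (adjusted p = 3.4e-08). YALI0_C00451g had 500 and 503 FPKM after and 484 and 489 FPKM before it, with a difference of -6.92 ± 0.14 (adjusted p = 3.5e-08). YALI0_D15422g had 306 and 319 FPKM after and 209 and 193 FPKM before it, with a difference of -6.44 ± 0.40 (adjusted p = 5.0e-06). With pO2 control the log2 fold changes of these AAT genes were 0.09, 0.04 and 0.64, none of them called, and those of YALI0_E10219g and YALI0_C00451g turned to -0.036 and -0.077 after median-of-ratios scaling.

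The difference was positive for YALI0_F25795g (6.11 ± 0.55, adjusted p = 3.6e-05), YALI0_B16522g (3.33 ± 0.30, adjusted p = 3.6e-05), YALI0_F19866g (2.59 ± 0.29, adjusted p = 1.1e-04) and YALI0_B20064g (2.14 ± 0.49, adjusted p = 0.0056), all AAT genes. Of these only YALI0_B20064g rose with pO2 control. YALI0_F19866g fell in both cultures, by -2.11 from 4.34 and 4.52 FPKM with pO2 control and by -4.70 from 33.5 and 33.5 FPKM without it. YALI0_F25795g had 1.02 and 1.02 FPKM after and 1.56 and 0.67 FPKM before glycerol limitation in the controlled culture, where its groups overlapped. YALI0_B16522g had 0.23 and 0.45 FPKM after and 1.67 and 1.99 FPKM before it there (-1.08 ± 0.25, not called). For YALI0_F25795g and YALI0_B16522g the higher values were thus those of the uncontrolled culture before glycerol limitation. YALI0_B20064g had 37.4 and 57.2 FPKM after and 32.5 and 13.9 FPKM before glycerol limitation without pO2 control, and its difference was 1.56 without replicate 1 of pO2-UN-2 and 1.84 without replicate 1 of pO2-UN-3, and then not called.

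In the POT family, 3 of 7 genes had a lower response with pO2 control. YALI0_E04510g (chromosome E, 511102 to 512919) had 109 and 110 FPKM after and 247 and 258 FPKM before glycerol limitation in the controlled culture, against 198 and 195 FPKM after and 9.61 and 7.54 FPKM before it in the uncontrolled culture. Its difference was -5.57 ± 0.16 (adjusted p = 1.8e-07). YALI0_D19558g had 584 and 683 FPKM after and 341 and 204 FPKM before it in the uncontrolled culture (1.26 ± 0.24, not called), with a difference of -3.68 ± 0.29 (adjusted p = 1.8e-05), and YALI0_D23485g rose in both cultures with a difference of -3.41 ± 0.19 (adjusted p = 3.3e-06). The responses of these POT genes differed in the same direction, although YALI0_D23485g rose and YALI0_D19558g fell with pO2 control.

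The effect of pO2 control was also compared within each phase. Before glycerol limitation, 11 of 30 transporter genes tested were higher and 3 lower in the controlled than in the uncontrolled culture. Of all 6158 genes tested, 14.4% were higher, 9.18% lower and 23.5% called in either direction, and the median log2 fold change was 1.52 for the transporter genes and 0.31 over all genes. With median-of-ratios scaling 9 transporter genes were higher and 3 lower, and over all genes 712 were higher and 715 lower, beside 884 and 565 without it. This comparison shares libraries with both responses above. Higher were 7 of 19 AAT genes, 2 of 7 POT genes, the SLC36 gene and 1 of 2 SLC38 genes, and all 3 lower genes were AAT genes.

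The largest increases with pO2 control before glycerol limitation were those of YALI0_E10219g (8.49 ± 0.10, adjusted p = 1.3e-05), YALI0_C17237g (8.40 ± 0.69, adjusted p = 4.0e-04), YALI0_C00451g (7.78 ± 0.13, adjusted p = 1.5e-05), YALI0_B19492g (7.45 ± 0.13, adjusted p = 1.6e-05) and YALI0_D15422g (6.63 ± 0.15, adjusted p = 2.0e-05) on the log2 scale. All are AAT genes, and the ratio of their mean FPKM was 191 to 695. The POT gene YALI0_E04510g followed with 4.74 ± 0.14 (adjusted p = 2.9e-05). YALI0_D19646g, an AAT gene by a weak hit, had 134 and 129 FPKM in the controlled and 12.6 and 5.95 FPKM in the uncontrolled culture before glycerol limitation (3.76 ± 0.34, adjusted p = 5.2e-04). Of these 11 genes, 9 were also among the 10 that rose after glycerol limitation in the uncontrolled culture, and both counts use its libraries from before glycerol limitation.

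Lower with pO2 control before glycerol limitation were YALI0_F25795g (-6.12 ± 0.26, adjusted p = 6.2e-05), YALI0_B16522g (-4.12 ± 0.17, adjusted p = 5.5e-05) and YALI0_F19866g (-2.67 ± 0.12, adjusted p = 7.5e-05). YALI0_F01254g, a further AAT gene with its highest level in the uncontrolled culture before glycerol limitation, had 11.9 and 11.4 FPKM in the controlled and 31.6 and 24.1 FPKM in the uncontrolled culture (-1.18 ± 0.17, not called). YALI0_B19800g had 35.8 and 32.5 FPKM in the controlled and 74.4 and 42.4 FPKM in the uncontrolled culture (-0.70 ± 0.28, not called). The uncontrolled culture before glycerol limitation was thus the group of highest mean for 5 AAT genes, of which 3 passed the test. These are 16.1% of the 31 transporter genes, beside 21.9% of all 6282 genes compared in this way.

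After glycerol limitation the cultures were much closer. By limma, 0 of 30 transporter genes tested were higher and 2 were lower in the controlled than in the uncontrolled culture, whereas 1.82% of all 6209 genes were higher, 1.34% lower and 3.16% called either way. At an unadjusted p under 0.05 with no minimum change, 12 of the transporter genes were higher and 8 lower. With the minimum log2 fold change at 1 in place of 2, 4 were called higher and 2 lower, beside 523 and 376 of all genes. The median log2 fold change was 0.17, beside 0.10 over all genes. The lower genes were the POT gene YALI0_D19558g, with 97.1 and 97.6 FPKM in the controlled and 584 and 683 FPKM in the uncontrolled culture (-2.69 ± 0.10, adjusted p = 1.3e-04), and the AAT gene YALI0_B19338g, with 44.5 and 45.3 FPKM in the controlled and 353 and 220 FPKM in the uncontrolled culture (-2.61 ± 0.22, adjusted p = 9.1e-04). YALI0_F19866g was not tested here, since it had 0.11 and 0.43 FPKM in the controlled and 0.33 and 0.33 FPKM in the uncontrolled culture. YALI0_D16137g had 0.82 and 1.16 FPKM in the controlled and 5.86 and 0.83 FPKM in the uncontrolled culture (-0.84 ± 0.64, adjusted p = 0.32), so that its groups overlapped and 1 library held most of its signal.

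**Figure D5:**
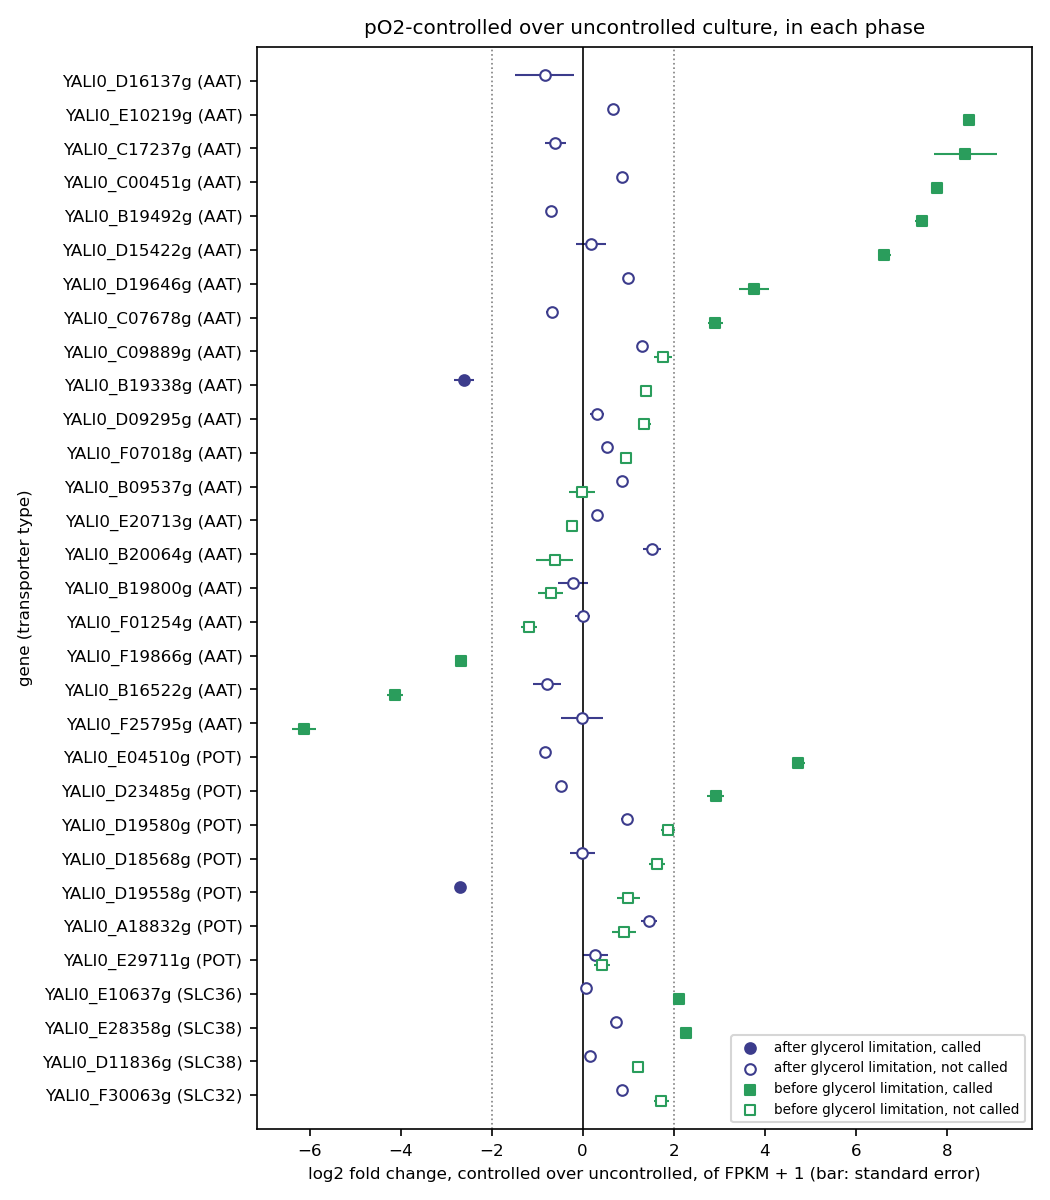
Log2 fold change of FPKM + 1 in the pO2-controlled over the uncontrolled culture (x axis, bars are standard errors), after and before glycerol limitation, for each transporter gene; filled symbols are called genes and dotted lines mark the minimum change of 2. The values before glycerol limitation run between -6.12 and 8.49 and those after it between -2.69 and 1.52.

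The SLC genes stayed under the minimum change after glycerol limitation in both cultures, with log2 fold changes of -1.38 to 1.25. The SLC36 gene YALI0_E10637g (chromosome E, 1319672 to 1321888) had 83.2 and 81.5 FPKM after and 213 and 219 FPKM before glycerol limitation in the controlled culture (-1.38 ± 0.04, not called), against 80.3 and 77.1 FPKM after and 44.7 and 54.3 FPKM before it in the uncontrolled culture (0.66 ± 0.17, not called). Before glycerol limitation it was higher with pO2 control (2.11 ± 0.12, adjusted p = 1.4e-04), and its responses differed by -2.04 ± 0.15 (adjusted p = 1.2e-05). Both of these values lay just past the minimum, and without replicate 1 of pO2-UN-2 they were 1.97 and -1.91 and not called, as were the 1.80 and -1.81 after median-of-ratios scaling.

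Of the SLC38 genes, YALI0_E28358g (chromosome E, 3354406 to 3355785) had 28.7 and 30.4 FPKM after and 59.8 and 58.3 FPKM before glycerol limitation with pO2 control, against 17.1 and 17.9 FPKM after and 10.7 and 12.2 FPKM before it without. It was higher with pO2 control before glycerol limitation (2.27 ± 0.12, adjusted p = 1.0e-04), by 1.97 and not called after median-of-ratios scaling. YALI0_D11836g (chromosome D, 1466833 to 1468116), the second one, had 120 and 115 FPKM after and 105 and 101 FPKM before it with pO2 control, against 109 and 100 FPKM after and 43.9 and 43.3 FPKM before it without, and passed in no comparison. The SLC32 gene YALI0_F30063g (chromosome F, 3766514 to 3768112) had 99.0 and 97.0 FPKM after and 90.0 and 88.0 FPKM before it with pO2 control, against 58.0 and 49.3 FPKM after and 22.6 and 30.3 FPKM before it without, and was not called either. All 4 SLC genes had their lowest group mean in the uncontrolled culture before glycerol limitation.

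In all, 21 of the 31 genes were called in at least 1 of the 4 comparisons of groups. The share of all genes called in at least 1 of them was not counted. The single comparisons called 3.16% to 23.5% of all genes, which is not a like share for a count over 4 comparisons. The other 10 transporter genes were called in none, which depends on the amount added to FPKM and on the minimum change. The 10 were YALI0_D09295g, YALI0_D16137g, YALI0_F01254g and YALI0_F07018g of the AAT family, YALI0_A18832g, YALI0_D18568g, YALI0_D19580g and YALI0_E29711g of the POT family, YALI0_D11836g and YALI0_F30063g. YALI0_F07018g had the narrowest range of group means, with 44.6 and 44.0 FPKM after and 56.8 and 52.8 FPKM before glycerol limitation in the controlled culture, against 31.2 and 29.1 FPKM after and 25.9 and 30.3 FPKM before it in the uncontrolled culture. YALI0_D09295g lay between 11.2 and 33.8 FPKM over the 8 libraries. In the POT family YALI0_D19580g lay between 16.1 and 71.4 FPKM, YALI0_A18832g between 3.39 and 21.3 FPKM, and YALI0_D18568g and YALI0_E29711g stayed below 7 FPKM in every library. These 4 POT genes held a small part of the type's signal, most of which came from YALI0_D19558g and YALI0_E04510g.

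Genes with the same first KEGG hit moved together in some cases and apart in others. YALI0_B16522g, YALI0_B19800g, YALI0_C09889g, YALI0_C17237g and YALI0_E10219g all had the same *Candida albicans* gene as their first KEGG hit. In the uncontrolled culture the last 3 rose and YALI0_B16522g and YALI0_B19800g fell after glycerol limitation. YALI0_B19492g and YALI0_F19866g shared a *Kluyveromyces lactis* gene as first hit and likewise moved in opposite directions there. The 5 POT genes YALI0_A18832g, YALI0_D18568g, YALI0_D23485g, YALI0_E04510g and YALI0_E29711g shared a *Lachancea thermotolerans* gene. Of these, YALI0_D23485g and YALI0_E04510g rose without pO2 control and YALI0_D23485g also with it, and the other 3 were not called in either culture. YALI0_B09537g and YALI0_D15422g shared the entry of YALI0_D15422g itself. YALI0_D15422g rose without and YALI0_B09537g with pO2 control, neither was called in the other culture, and the log2 fold changes of both were positive in both cultures. Reads of close paralogs can be split between them by the mapping, which was not examined here.

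Of the AAT genes, YALI0_B19338g, YALI0_B19492g, YALI0_B19800g and YALI0_B20064g lie on chromosome B between 2557513 and 2641997 in the CLIB122 assembly, with 4, 10 and 7 other genes between neighbours. In the controlled culture the first 3 fell and the last rose after glycerol limitation, and in the uncontrolled culture YALI0_B19492g rose and YALI0_B19800g fell. The POT genes YALI0_D19558g and YALI0_D19580g are direct neighbours on chromosome D on the same strand, 3642 bases apart. YALI0_D19558g fell after glycerol limitation with pO2 control and YALI0_D19580g did not pass, with 41.5 and 43.9 FPKM after and 71.4 and 69.0 FPKM before it (-0.70 ± 0.06).

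Other genes of nitrogen and amino acid use were counted by the same calls. Their counts stand beside 11.3% higher and 5.01% lower of all genes after glycerol limitation without pO2 control, 9.52% higher and 4.29% lower with it, and 14.4% higher and 9.18% lower in the controlled than in the uncontrolled culture before glycerol limitation, with medians of 0.49, 0.13 and 0.31 on the log2 scale. Of 14 nitrogen assimilation genes, 6 were higher and 1 lower after glycerol limitation without pO2 control and 3 were higher with it, and before glycerol limitation 6 were higher in the controlled than in the uncontrolled culture. The median log2 fold changes were 1.67, 0.05 and 1.89. Among them the ammonium transporter YALI0_B13794g had 2407 and 2369 FPKM after and 304 and 309 FPKM before glycerol limitation with pO2 control, against 628 and 1025 FPKM after and 1.03 and 0.58 FPKM before it without. The NAD-dependent glutamate dehydrogenase gene YALI0_E09603g, which releases ammonium from glutamate, was the 1 lower gene, with 59.5 and 62.6 FPKM after and 443 and 426 FPKM before glycerol limitation without pO2 control (-2.81, adjusted p = 5.1e-06).

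Of 34 genes of amino acid catabolism, 14 were higher and 3 lower after glycerol limitation without pO2 control, with a median log2 fold change of 1.41. With pO2 control 1 was higher and 7 were lower (median -1.25). Before glycerol limitation 23 were higher and 1 lower in the controlled than in the uncontrolled culture (median 3.41), and after it 2 were higher. One example is YALI0_B21846g, for 4-hydroxyphenylpyruvate dioxygenase of tyrosine breakdown, with 419 and 371 FPKM after and 1027 and 1047 FPKM before glycerol limitation in the controlled culture, against 494 and 579 FPKM after and 6.55 and 11.1 FPKM before it in the uncontrolled culture. The first hits to aminomethyltransferase moved in several directions. Without these 5 genes, a choice made after seeing the data, 20 of 29 were higher with pO2 control before glycerol limitation.

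Of 35 genes for vacuolar and other peptidases, which free amino acids from peptides and proteins, 10 of 32 tested were higher with pO2 control before glycerol limitation (median 1.27), 5 of 31 were higher after glycerol limitation without pO2 control (median 0.52), and 3 of 33 were higher and 5 lower with it (median -0.24). These are 31.3%, 16.1% and 9.09% higher and, with pO2 control, 15.2% lower, beside 14.4%, 11.3% and 9.52% higher and 4.29% lower over all genes, so that the shares of peptidase genes higher after glycerol limitation lay near those of all genes. Of the 4 genes for amino acid signalling and permease sorting, among them the general control activator GCN4 (YALI0_E27742g), 0 were called in any comparison by limma. At an unadjusted p under 0.05, between 1 and 4 of them differed in each comparison.

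A further 7 genes carry the GO term for oligopeptide transporter activity but no KEGG Orthology name, and so are not among the 31. Of these 7, 0 were higher and 2 lower after glycerol limitation with pO2 control by limma (median -0.73), with 2 higher and 5 lower at an unadjusted p under 0.05. Without pO2 control 5 were higher and 1 lower after it (median 3.85), and 5 were higher in the controlled than in the uncontrolled culture before it. YALI0_A00110g had 2517 and 2585 FPKM after and 3704 and 3643 FPKM before glycerol limitation with pO2 control, against 4960 and 4419 FPKM after and 1.22 and 1.13 FPKM before it without, that is 11.07 on the log2 scale in the uncontrolled culture (adjusted p = 7.4e-08). YALI0_F18964g went the other way, with 40.1 and 38.7 FPKM after and 415 and 365 FPKM before glycerol limitation without pO2 control (-3.27, adjusted p = 4.1e-06). It was also lower after glycerol limitation with pO2 control, with 8.90 and 10.4 FPKM after and 291 and 293 FPKM before it (-4.79, adjusted p = 8.9e-08). YALI0_C18491g had 109.98 and 110.3 FPKM after and 1008 and 993 FPKM before glycerol limitation with pO2 control (-3.17, adjusted p = 1.7e-08), against 229 and 272 FPKM after and 16.01 and 16.7 FPKM before it without (3.85, adjusted p = 3.7e-06). In level, YALI0_A00110g alone exceeded the sum of all 7 POT genes in 6 of the 8 libraries. A further 11 genes carry the GO term for amino acid transport, 9 of them with an aquaporin-related KEGG name, and of the 10 tested 3 were lower after glycerol limitation with pO2 control and 1 was higher and 2 lower without it. In the controlled culture 3 of them were higher than in the uncontrolled culture before glycerol limitation, that is 30.0%, beside 14.4% of all genes.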

How the data were processed

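The authors checked the paired-end reads with FastQC, aligned them to the CLIB122 genome with TopHat2 and computed FPKM per gene and library with Cufflinks; these deposited FPKM tables, 1 per culture, were used as given. All 8 value columns were assigned to a group through the sample titles. The 31 genes and all lists were chosen with earlier results of these data known.

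With limma 3.58.1 in R 4.3.3, log2(FPKM + 1) was fitted for genes with at least 1 FPKM in at least 2 libraries of the comparison, with a variance trend, and p-values were adjusted by Benjamini-Hochberg over all genes tested. A gene was called at an adjusted p under 0.05 and an absolute log2 value of at least 2. Fold changes on this scale understate the change of low genes. The method was tested on simulated data with an assumed spread between libraries, in which only genes starting well above the filter were changed. That test was not set to the spread of the uncontrolled culture and does not cover genes starting near the filter. Named in full were the 5 largest changes per direction and comparison, the most abundant gene per type and all genes of types with up to 3 members; the remaining genes are given more briefly. Counting intervals used fragment numbers estimated from the FPKM steps and cover counting error only. The gene table at hand was of another strain and matched 0 locus tags, so that no sequences are shown. Figures were drawn with matplotlib 3.10.9. Alternatives were FPKM + 0.1, no or a stricter filter of 5 FPKM, a minimum change of 1, median-of-ratios scaling, a replicate block, a spread from all 8 libraries, and leaving out each library.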

Additional observations from a re-analysis of the deposited data

Results flagged for a closer look

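The transporter genes below stood out because their response to glycerol limitation differed between the cultures in the test of the difference itself. The difference was the log2 fold change with pO2 control minus that without it. Listed are genes with an adjusted p under 0.05 in limma and an absolute difference of at least 2. By these limits 18.7% of all 6278 genes tested were called either way. At that adjusted p with no minimum, 7 of the 31 transporter genes had a positive and 18 a negative difference. The response was lower with pO2 control by a difference of -9.00 for YALI0_C17237g, -8.14 for YALI0_B19492g, -7.82 for YALI0_E10219g, -6.92 for YALI0_C00451g, -6.44 for YALI0_D15422g and -5.57 for YALI0_E04510g. Smaller differences of the same sign were -4.00 for YALI0_B19338g, -3.68 for YALI0_D19558g, -3.59 for YALI0_C07678g, -3.41 for YALI0_D23485g, -2.76 for YALI0_D19646g and -2.04 for YALI0_E10637g. The difference was positive, at 2.14 for YALI0_B20064g, 2.59 for YALI0_F19866g, 3.33 for YALI0_B16522g and 6.11 for YALI0_F25795g, and of these only YALI0_B20064g rose with pO2 control. The cultures also differ in their fermentation run and sampling time, which cannot be told apart from pO2 control.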

How the results depend on the processing

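With a minimum log2 fold change of 1 in place of 2, 6 transporter genes were higher and 11 lower after glycerol limitation with pO2 control. Without it, 17 were higher and 5 lower. In the controlled against the uncontrolled culture, 18 were higher and 4 lower before glycerol limitation, and 4 higher and 2 lower after it. For the difference of responses, 5 were higher and 16 lower. Each comparison of groups tested 30 transporter genes, and the difference 31. Over all genes, 2187 genes were then called after against before glycerol limitation with pO2 control, 2827 without it, 3166 before and 899 after glycerol limitation between the cultures, and 2865 for the difference of responses. Leaving out 1 library at a time gave 9 to 11 genes higher and 4 lower without pO2 control, 5 higher and 5 to 6 lower with it, 10 to 12 higher and 3 lower between the cultures before glycerol limitation, and 3 to 4 higher and 11 to 12 lower for the difference of responses. A fit then has a lone library in 1 group, assumed to vary like the others.

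Median-of-ratios scaling turned the log2 fold changes of YALI0_E10219g and YALI0_C00451g with pO2 control to -0.036 and -0.077. It moved the median over all genes to 0.01, against 0.13 without scaling, for the response with pO2 control, and to 0.006, against 0.31, between the cultures before glycerol limitation. For YALI0_D16137g the cultures after glycerol limitation differed by -1.79 to 0.12, the last without replicate 1 of pO2-UN-3. FPKM + 0.1 called YALI0_B16522g lower after glycerol limitation with pO2 control (-2.17). It also gave 13 in place of 11 transporter genes higher with pO2 control before glycerol limitation, beside 1000 in place of 884 of all genes. For the difference of responses it gave 13 in place of 12 lower, beside 862 in place of 742 of all genes. With a filter of 5 FPKM, YALI0_F19866g was not tested with pO2 control. Deviations of same-numbered replicates correlated at -0.052 to 0.042 across genes. This cannot decide whether the numbers mark pairs, since a small shared effect could be hidden by the spread between libraries. With the replicate block the counts of transporter genes were the same, with 5 higher and 6 lower with pO2 control and 10 higher and 4 lower without it. The cause of these shifts was not tested. The 1.13 and 1.00 FPKM of YALI0_E10219g stand for about 10 and 9 fragments, and ratios over such low groups are known no better than their counting intervals.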
